A study of Mus musculus with 8 samples.

Results

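The nuclear-encoded subunits of the mitochondrial respiratory chain were compared between GFP-positive and GFP-negative cells of mouse alveolar organoids. Every row of the count table whose symbol begins as a numbered Nduf, Sdh, Uqcr, Cox4 to Cox8 or Atp5 subunit name was taken, which gave 84 of 23284 genes: 36 of complex I, 4 of complex II, 8 of complex III, 19 of complex IV and 17 of complex V. The organoids are cultures of lung cells from mice that carry an Sftpc-eGFP transgene, in which the promoter of the surfactant protein C gene drives green fluorescent protein, and they were grown as drops of 90% matrigel in FNHCAS medium with no treatment. Each of 4 lines, SN2285, SN2286, SN2293 and SN2294, was sorted by fluorescence into GFP-positive and GFP-negative cells, and polyadenylated RNA of each was sequenced once, so that both groups of 4 libraries share the transgene, the medium and the lines and differ in the sort. Whether the 4 lines derive from different animals is not in the labels, so p-values measure the spread between these libraries, which may be technical. Surfactant protein C is a product of alveolar type 2 cells, and the GFP-negative sort holds any cell without an active reporter. Age and sex of the animals are not given in the labels.

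The respiratory chain sits in the inner membrane of the mitochondrion. Complex I takes electrons from NADH and complex II from succinate, complex III passes them to cytochrome c, and complex IV hands them to oxygen, while complexes I, III and IV pump protons that complex V uses to make ATP. Most subunits are encoded in the nucleus, and a few core subunits of complexes I, III, IV and V in mitochondrial DNA. In the lung, alveolar type 2 cells are known for abundant mitochondria, and surfactant synthesis and secretion need ATP. The subunits encoded by mitochondrial DNA could not be analysed, since none of the 26 symbols searched for them was in the count table. Ndufab1, whose symbol carries no subunit number of this form, is outside the gene set. It is counted below with the carriers and inhibitors next to the chain. The symbol Cox4nb matches by its name only, since the gene is now Emc8 and encodes no subunit. Ndufa4 is counted with complex I by its symbol although its protein is now known as a subunit of complex IV, and Atp5s, Atp5sl and Cox7a2l encode assembly or linking proteins and not core subunits.

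Promoters of 69 of the 84 genes were found by symbol in RefSeq (build GRCm38.p6), as windows of 300 bases from 250 before to 50 after the transcription start. In mammals many respiratory genes have been described with sites for NRF1, for ETS-family factors such as GABPA and for YY1, and 4 short motifs were searched on both strands. The NRF1 motif, searched as the core GCATGCGC, was found in 10 of the 69 (14.5%) and in 3.05% of all 27025 genes with a promoter. The ETS motif CCGGAAG was found in 16 (23.2%, against 9.93% of all) and the YY1 motif AAGATGGCG in 8 (11.6%, against 1.64% of all). The motif of RBPJ, GTGGGAA, stood in 4 (5.8%, against 7.25% of all). The ETS and YY1 motifs can overlap by their shared AAG. A match is a run of letters and not a bound site. The 3 windows below are shown because Uqcr10 had the lowest adjusted p among the subunits that fell, Atp5e the lowest among the subunits with a matched promoter that rose, and Cox6a1 the highest level per length of complex IV in GFP-positive libraries. They are printed 5′ to 3′ on the strand of the gene, with motif matches in capitals: none in Uqcr10 (chr11:4704295-4704594, minus strand), the reverse complement of the ETS motif in Atp5e (chr2:174464052-174464351, minus strand), and the NRF1 core on both strands, overlapping, followed by the reverse complement of the ETS motif in Cox6a1 (chr5:115348909-115349208, minus strand).
Uqcr10: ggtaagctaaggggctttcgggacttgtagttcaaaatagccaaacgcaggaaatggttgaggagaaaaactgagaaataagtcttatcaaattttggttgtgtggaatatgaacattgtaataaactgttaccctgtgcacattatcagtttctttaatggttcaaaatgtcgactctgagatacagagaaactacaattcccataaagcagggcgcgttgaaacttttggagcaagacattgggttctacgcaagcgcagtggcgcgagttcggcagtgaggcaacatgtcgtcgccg
Atp5e: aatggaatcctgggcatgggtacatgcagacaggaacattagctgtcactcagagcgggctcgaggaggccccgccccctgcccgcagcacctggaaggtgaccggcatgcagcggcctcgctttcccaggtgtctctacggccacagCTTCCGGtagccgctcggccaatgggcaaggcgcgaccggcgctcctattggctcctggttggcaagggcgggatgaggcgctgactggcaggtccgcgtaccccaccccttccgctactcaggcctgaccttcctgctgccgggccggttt
Cox6a1: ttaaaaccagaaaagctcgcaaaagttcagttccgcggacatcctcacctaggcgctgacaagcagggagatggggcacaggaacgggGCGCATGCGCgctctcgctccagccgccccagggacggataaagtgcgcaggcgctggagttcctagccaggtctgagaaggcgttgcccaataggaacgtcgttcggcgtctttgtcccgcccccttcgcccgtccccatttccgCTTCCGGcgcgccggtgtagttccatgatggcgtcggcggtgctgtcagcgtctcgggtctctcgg

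The 8 libraries held 5910344 to 16032633 counts each, the GFP-negative library of SN2294 being the shallowest. Levels are given as CPM, counts scaled to sequencing depth, after TMM scaling, a correction for differences in composition between libraries. The alveolar type 2 markers (Sftpc, Sftpb, Abca3 and 7 others) summed to 40300 to 46000 CPM in GFP-positive and 4980 to 6790 CPM in GFP-negative libraries, and 10 of 10 rose. In the same libraries 8 of 8 basal cell markers fell, from 1970 to 2500 CPM in GFP-negative libraries to 67.6 to 113 CPM. Of the fibroblast and smooth muscle markers 9 of the 9 tested fell, with sums of 407 to 740 against 15.7 to 24.6 CPM. Club cell markers summed to 1500 to 2040 against 72.1 to 219 CPM and leukocyte markers to 397 to 475 against 29.7 to 176 CPM, with Cd3e at 0 in both sorts. AT1 markers summed to 2260 to 3180 CPM in GFP-positive and 1530 to 2130 CPM in GFP-negative libraries. Every result below stands beside this change in cell types, whose part in it was not tested, and fewer cells of a type and less RNA per cell cannot be told apart in sorted bulk RNA.

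Most respiratory chain genes lay at nearly the same level in both sorts. Of the 84, 79 had enough counts for the test. With edgeR's quasi-likelihood test by sort alone, which does not use the pairs of libraries of a line, 12 of them (15.2%) were called. The false discovery rate (FDR) was set at 0.05, and 4 were higher and 8 lower in GFP-positive cells. With line as a term, 22.8% of the 79 and 48% of all genes were called. By sort alone, 40.7% of all 12848 genes tested were called, 18.9% higher and 21.8% lower. The rising genes were Ndufa3, Ndufv3, Cox4i2 and Atp5e, and the falling genes included Ndufs1, Ndufv1, Uqcr10, Uqcrh, Cox4i1, Cox5b and Atp5sl. The fold was under 1.5 in either direction for 76 of the 79, against 73.2% of all genes. For 70 of the 79 (88.6%) the whole 95% interval of the fold lay within 1.5-fold, against 51.2% of all genes. The respiratory chain genes were better measured than most, with a median level of 93.8 CPM against 32.6 CPM over all genes and a median SE of the log2 fold change of 0.08 against 0.12. Among the 9648 genes with a mean of at least 10 CPM, 39.4% were called and 64.9% had an interval inside 1.5-fold, and of the 74 respiratory chain genes there 2 rose, 11 fell and 70 had such an interval.

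**Figure D1:**
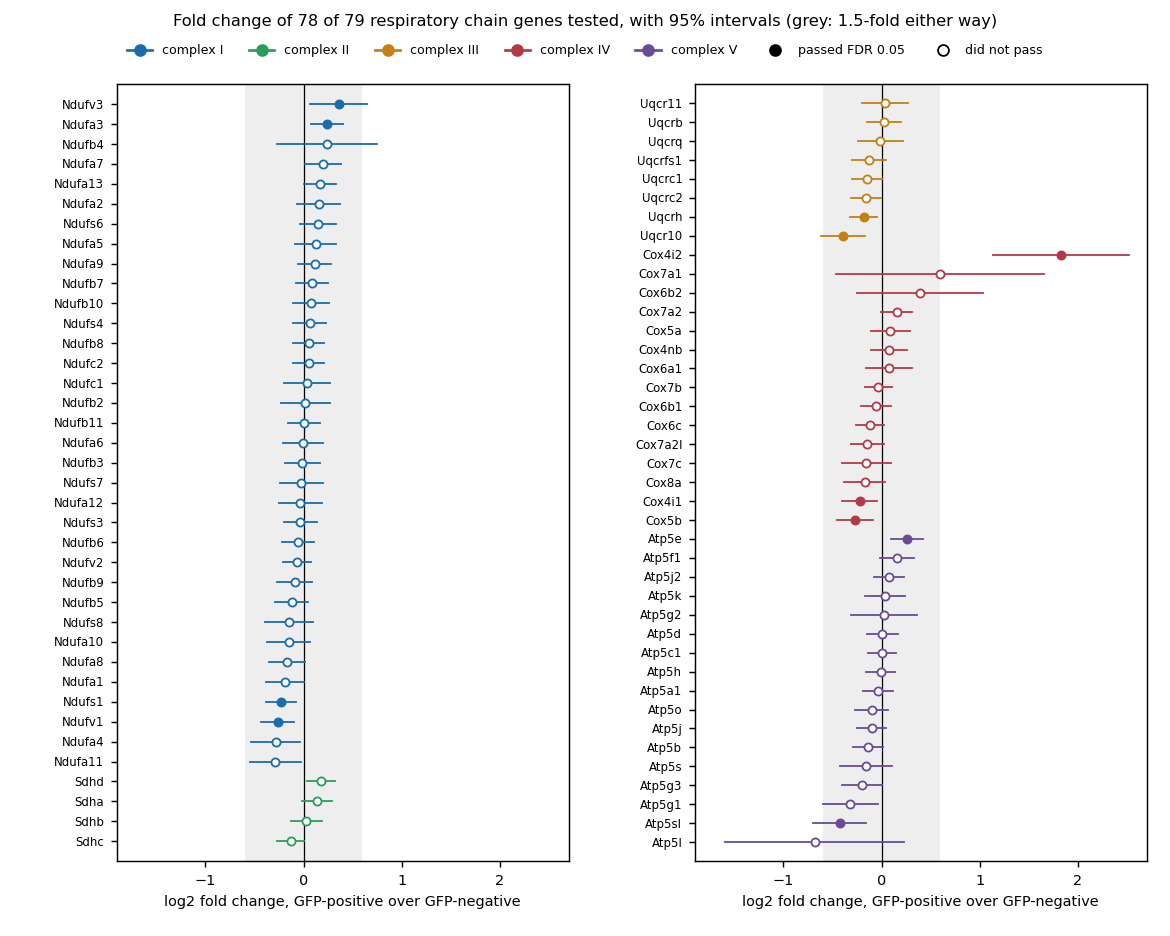
Log2 fold change of GFP-positive over GFP-negative for 78 of the 79 genes tested, with 95% intervals over 4 libraries a group, sorted within complexes I to V; filled points passed the FDR of 0.05 and the grey band is 1.5-fold either way. All points but Cox4i2, Cox7a1 and Atp5l lie inside the band.

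The groups of 4 libraries did not overlap for 4 of the 79 genes that were higher in GFP-positive cells (Sdha, Sdhd, Cox4i2 and Atp5e) and for 8 that were lower, against 18% and 21.6% of all genes. In 8 genes the GFP-positive library was the higher one in 4 of 4 lines, and in 21 it was the lower one in 4 of 4. The matching shares over all genes are not given here, so no shift of the whole set is read from these counts. With line as a term in the fit, 18 of the 79 were called, 6 higher and 12 lower, against 48% of all genes (22.8% higher and 25.2% lower). These included the 12 above and added Ndufa7 and Sdhd as higher and Ndufa4, Ndufa11, Atp5g1 and Atp5g3 as lower. The median log2 fold change was −0.01 over the 79 genes and −0.01 over all genes tested. Scaled by library size alone, both medians shifted to −0.16, and 1 respiratory chain gene was called higher and 30 lower, so directions here are relative to the bulk of genes. Under that scaling 39.2% of the 79 and 44.4% of all genes were called, and 26.4% of all calls were higher, against 46.5% with TMM. As a share of raw counts, the 84 genes took 0.932 to 1.04% of each GFP-positive and 1.05 to 1.22% of each GFP-negative library.

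**Figure D2:**
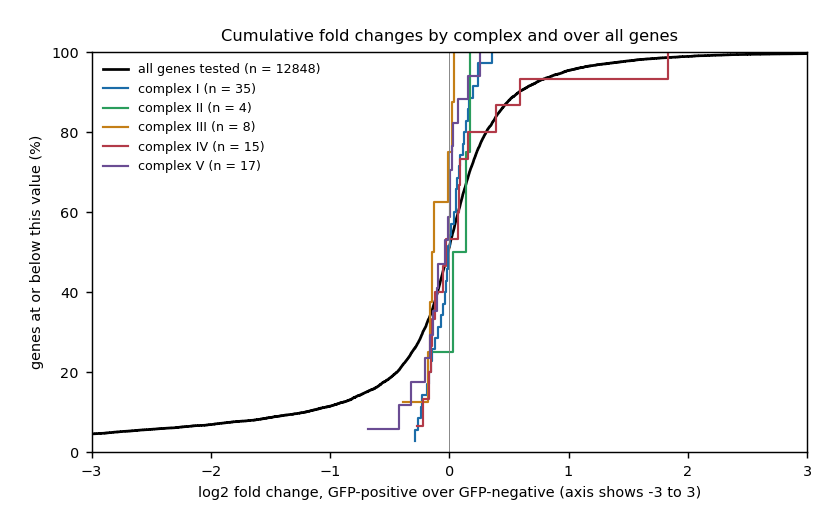
Cumulative share of genes (percent, vertical) at or below each log2 fold change (horizontal, cut at −3 and 3), for each complex and for all 12848 genes tested. The curves of the complexes rise within a narrow range around 0, and 73.2% of all genes lie within 1.5-fold either way.

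In complex I, 2 of the 35 genes tested rose and 3 fell. Among those that fell, Ndufv1, which binds NADH and the flavin, and Ndufs1, the largest subunit with iron-sulfur clusters, encode core subunits of the matrix arm. In the line order above, Ndufv1 measured 77.1, 74.1, 77.8 and 80.4 CPM in GFP-positive and 94.4, 91.6, 83.2 and 103 CPM in GFP-negative libraries. Every GFP-negative library lay above every GFP-positive one, and the log2 fold change was −0.26 (SE 0.08, FDR 0.015 by edgeR). Ndufs1 measured 93.2, 102, 102 and 110 CPM against 116, 121, 114 and 126 CPM. The highest GFP-positive library stayed just under the lowest GFP-negative one, with a log2 fold change of −0.23 (SE 0.07, FDR 0.023 by edgeR).

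Ndufs7 and Ndufs8, core subunits which carry iron-sulfur clusters near the quinone site, had log2 fold changes of −0.02 (SE 0.10) and −0.15 (SE 0.11) and were not called. In the fit by sort alone, the call of Ndufs1 depended on single libraries. With line as a term and all 8 libraries its FDR was 0.0098 by edgeR, and leaving out libraries was not tried with that term. Ndufs1 missed the threshold without the GFP-positive library of SN2285, SN2286 or SN2293 (FDR 0.072, 0.054 and 0.056) and without the GFP-negative library of SN2286 or SN2294 (FDR 0.057 and 0.051). Ndufv1 passed whichever library was left out.

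The 2 complex I genes that rose encode accessory subunits. Ndufv3, a small subunit at the tip of the NADH module, measured 135, 113, 123 and 88.7 CPM in GFP-positive and 99.95, 86.6, 96.2 and 74.5 CPM in GFP-negative libraries. Both SN2294 libraries were the lowest of their sort and the groups overlapped, but the GFP-positive library was higher in 4 of 4 lines, with a log2 fold change of 0.36 (SE 0.13, FDR 0.048 by edgeR). With line as a term the edgeR FDR was 0.0005. Without that term the call was lost in 6 of the 8 fits that leave out a library, with FDR 0.122, 0.078 and 0.11 without GFP-positive SN2285, SN2286 and SN2293 and 0.103, 0.064 and 0.109 without GFP-negative SN2286, SN2293 and SN2294. Ndufa3, a small membrane subunit, measured 76.9, 69.0, 73.0 and 73.7 CPM against 59.0, 58.6, 62.1 and 69.0 CPM. The groups touched at one pair of libraries, and the log2 fold change was 0.24 (SE 0.08, FDR 0.024 by edgeR). Its call was lost without GFP-positive SN2285 or SN2293 (FDR 0.058 and 0.050) and without GFP-negative SN2285, SN2286 or SN2293 (FDR 0.066, 0.074 and 0.056). Scaled by library size alone, neither gene passed, with log2 fold changes of 0.09 for Ndufa3 (FDR 0.41) and 0.21 for Ndufv3 (FDR 0.199).

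The remaining 30 complex I genes tested were not called, with log2 fold changes from −0.29 (Ndufa11) to 0.24 (Ndufb4). Ndufa11, which links membrane subunits, measured 40.2, 33.4, 33.4 and 41.2 CPM against 41.99, 46.97, 38.8 and 54.3 CPM, lower in 4 of 4 lines with overlapping groups (FDR 0.075, and 0.015 with line as a term, by edgeR). Ndufa4 measured 118, 124, 123 and 155 CPM against 136, 171, 144 and 184 CPM. It too was lower in 4 of 4 lines, with SN2294 the highest in both sorts, and had a log2 fold change of −0.28 (SE 0.11, FDR 0.067, and 0.0038 with line as a term, by edgeR). Ndufb4 was counted at 3.0 to 7.6 CPM and had the widest interval of the complex, from −0.27 to 0.75 on the log2 scale. Ndufs5 had 0 counts in every library.

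Complex II, which is also succinate dehydrogenase of the TCA cycle, had 0 of 4 genes called by edgeR, 1 at an unadjusted p under 0.05 and 1 called by DESeq2 (Sdhd in both). Its catalytic flavoprotein Sdha measured 287, 305, 290 and 325 CPM in GFP-positive and 286, 279, 273 and 259 CPM in GFP-negative libraries. Each GFP-positive library lay above each GFP-negative one, by little in SN2285, and the log2 fold change was 0.14 (SE 0.07, FDR 0.133 by edgeR). Sdhd, a membrane anchor, measured 133, 139, 132 and 147 CPM against 117, 130, 119 and 121 CPM. Its groups were also separate, and its log2 fold change of 0.18 (SE 0.07) had an edgeR FDR of 0.051, or 0.036 with line as a term. The other anchor, Sdhc, ran the other way at 167, 158, 164 and 168 CPM against 184, 183, 167 and 186 CPM, with a log2 fold change of −0.13 (SE 0.06, FDR 0.126 by edgeR). The iron-sulfur subunit Sdhb was at 97.5 ± 6.64 CPM against 95.7 ± 5.19 CPM (SD, n = 4), with a log2 fold change of 0.03. All 4 intervals lay within 1.5-fold.

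Complex III had the lowest median log2 fold change, −0.14 over its 8 genes, and 2 of them fell. Uqcr10, a small subunit of the membrane part, measured 83.3, 80.5, 86.9 and 92.2 CPM in GFP-positive and 99.8, 118, 97.7 and 135 CPM in GFP-negative libraries. The groups were separate in all libraries, although GFP-negative values spread more widely, and the log2 fold change was −0.39 (SE 0.10, FDR 0.0095 by edgeR), or 1.31-fold lower in GFP-positive cells. It passed whichever library was left out. Uqcrh, the hinge protein between cytochrome c1 and cytochrome c, measured 227, 228, 219 and 231 CPM against 262, 260, 239 and 264 CPM. Every GFP-positive library was lower, by a log2 fold change of −0.18 (SE 0.06, FDR 0.039 by edgeR). Among fits that leave out 1 library, the call held without GFP-negative SN2293, and the FDR ran from 0.054 (without GFP-positive SN2294) to 0.115 (without GFP-positive SN2293) when any other single library was left out.

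The core proteins Uqcrc1 and Uqcrc2 and the Rieske iron-sulfur protein Uqcrfs1 had log2 fold changes of −0.15 (SE 0.07), −0.16 (SE 0.07) and −0.12 (SE 0.08) and were not called. Uqcrc1 was lower in 4 of 4 lines, Uqcrc2 and Uqcrfs1 in 3 of 4. Uqcrb, Uqcrq and Uqcr11, all small subunits, lay between −0.01 and 0.04. Each of the 8 genes but Uqcr10 had an interval inside 1.5-fold.

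Complex IV held the largest change of all 79 genes. Cox4i2 encodes the alternative form of subunit IV, which is known as the form enriched in lung. Cox4i1 encodes the form used in most tissues. Cox4i2 measured 3.26, 3.05, 4.59 and 2.73 CPM in GFP-positive and 1.003, 0.526, 1.22 and 1.103 CPM in GFP-negative libraries, from 32 to 57 and from 7 to 20 counts. No GFP-negative library reached the lowest GFP-positive one, and the log2 fold change was 1.83 (SE 0.32, FDR 0.00061 by edgeR), or 3.56-fold. It was called whichever library was left out, with log2 fold changes from 1.608 to 2.002. Thinned to the depth of the shallowest library, it was 2.26 (edgeR FDR 0.000415). The gene was too low to be tested at a minimum of 10 CPM. Fibroblast and smooth muscle markers were lower in GFP-positive libraries, with the sums given above, as part of the difference in cell types between the sorts. Which cells the Cox4i2 counts came from was not tested.

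Cox4i1 measured 281, 257, 274 and 277 CPM in GFP-positive and 312, 323, 280 and 355 CPM in GFP-negative libraries. The groups touched between the GFP-positive library of SN2285 and the GFP-negative one of SN2293, and GFP-positive cells were lower in 4 of 4 lines, with a log2 fold change of −0.22 (SE 0.08, FDR 0.042 by edgeR). This call was lost on leaving out any library but GFP-negative SN2293, with FDR from 0.063 (without GFP-positive SN2285) to 0.119 (without GFP-positive SN2286). The annotation of a neighbour, Emc8, shares 12.2% of the 50-base words of the Cox4i1 transcript. Cox4i2 made up 1.15, 1.17, 1.65 and 0.976% of the counts of both forms in GFP-positive and 0.32, 0.163, 0.432 and 0.309% in GFP-negative libraries. The mean share was 1.24 ± 0.289% against 0.306 ± 0.111% (SD, n = 4), higher in 4 of 4 lines, with an exact two-sided permutation p of 0.0286, the smallest that 70 assignments allow. Adjusted over the 6 isoform shares tested, p was 0.171 by Benjamini and Hochberg and did not pass. The exact sign-flip test over 4 lines gave 0.125, the smallest p it allows.

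**Figure D3:**
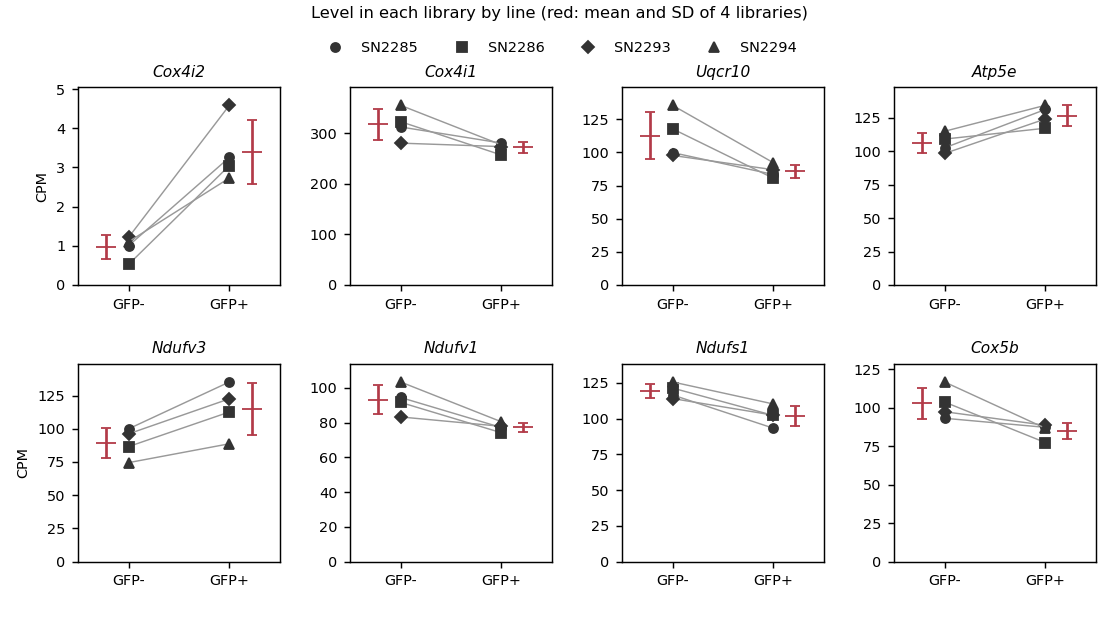
Level in CPM (vertical, from 0) of 8 genes in GFP-negative and GFP-positive libraries, with a symbol for each line, grey lines joining the libraries of a line, and the mean and SD of 4 libraries in red. Cox4i2, Atp5e and Ndufv3 are higher and the other 5 genes lower in GFP-positive cells in 4 of 4 lines.

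Cox5b, a subunit on the matrix side that binds zinc, measured 87.2, 77.4, 88.6 and 86.7 CPM in GFP-positive and 93.1, 104, 97.4 and 117 CPM in GFP-negative libraries. The groups were separate and the log2 fold change was −0.27 (SE 0.08, FDR 0.020 by edgeR), but the call was lost without GFP-positive SN2286 (FDR 0.069). Its partner Cox5a was at 132 ± 15.4 CPM against 125 ± 9.16 CPM (SD, n = 4) and was not called. The 12 complex IV genes not called, Cox5a among them, ran from −0.17 (Cox8a) to 0.59 (Cox7a1).

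Paralogs known best from heart and skeletal muscle were low or near 0. Cox7a1 measured 2.74, 1.24, 2.58 and 0.585 CPM in GFP-positive and 1.14, 0.854, 1.83 and 0.63 CPM in GFP-negative libraries, low in both SN2294 libraries, and its interval ran from −0.47 to 1.66. Its share of Cox7a1 and Cox7a2 counts was 1.18 ± 0.706% against 0.821 ± 0.408% (SD, n = 4; exact permutation p 0.4). Cox6a2 had 2 and Cox8b 4 counts over all 8 libraries, and Cox7b2 and Cox8c, forms known from testis, had 0. Cox6b2, a form known from testis, measured 7.88, 5.53, 10.3 and 3.77 CPM against 5.88, 4.53, 6.33 and 3.78 CPM, again lowest in SN2294 in both sorts. Its share of Cox6b1 and Cox6b2 counts was 3.22 ± 1.24% against 2.39 ± 0.698% (SD, n = 4; exact permutation p 0.314). That share was higher in GFP-positive libraries in 4 of 4 lines. The exact sign-flip test over lines gave 0.125, the smallest p it allows. Striated muscle markers summed to 3.43 to 5.66 CPM in GFP-positive and 2.5 to 9.61 CPM in GFP-negative libraries, with Myh6 at 0 in both.

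Complex V, the ATP synthase, had 1 gene higher and 1 lower of 17. Atp5e, the epsilon subunit of the central stalk, measured 131, 117, 124 and 134 CPM in GFP-positive and 102, 109, 98.2 and 115 CPM in GFP-negative libraries. The groups were separate, with a log2 fold change of 0.26 (SE 0.07, FDR 0.015 by edgeR). The call was lost without GFP-negative SN2293 (FDR 0.053), after thinning to a common depth (FDR 0.058) and with scaling by library size alone (log2 fold change 0.11, FDR 0.299). Atp5sl, now Dmac2, is an assembly factor of complex I and not a subunit of the synthase. It measured 13.5, 10.6, 13.7 and 14.0 CPM against 17.7, 18.7, 15.8 and 17.5 CPM, with separate groups and a log2 fold change of −0.42 (SE 0.12, FDR 0.016 by edgeR), and was lost without GFP-negative SN2286 (FDR 0.052).

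The subunits of the catalytic head were close between the sorts. Atp5a1 (alpha) was at 998 ± 53.2 CPM in GFP-positive against 1022 ± 46.9 CPM in GFP-negative libraries and Atp5c1 (gamma) at 264 ± 9.52 against 264 ± 13.02 CPM (SD, n = 4), with log2 fold changes of −0.03 (SE 0.07) and 0.00 (SE 0.07). Atp5b (beta) measured 1199.5, 1192, 1207 and 1332 CPM against 1343, 1421, 1263 and 1391 CPM. It was lower in 4 of 4 lines with overlapping groups, and its log2 fold change of −0.14 (SE 0.07) was not called (FDR 0.148 by edgeR). Atp5l, a membrane subunit, was counted at 0.343 to 1.89 CPM and had the lowest log2 fold change of the 79 genes, −0.68 (SE 0.42, FDR 0.224 by edgeR), with an interval from −1.59 to 0.23.

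Subunit c, the rotating ring of the synthase, is one mature protein encoded by Atp5g1, Atp5g2 and Atp5g3. As a share of raw counts, which are not scaled to length, Atp5g3 made up 83.6 ± 2.19% in GFP-positive and 84.1 ± 1.02% in GFP-negative libraries (SD, n = 4; exact permutation p 0.6). Atp5g1 gave 7.77 ± 0.684% against 8.47 ± 0.617% and Atp5g2 8.65 ± 2.04% against 7.41 ± 0.817% (SD, n = 4), with exact permutation p of 0.229 and 0.343. Atp5g1 measured 21.9, 20.6, 25.02 and 26.9 CPM against 25.1, 33.5, 26.6 and 32.9 CPM, and Atp5g3 measured 239, 246, 236 and 296 CPM against 280, 308, 263 and 318 CPM. Both were lower in 4 of 4 lines with overlapping groups, and both were called when line was a term (FDR 0.029 and 0.021 by edgeR) and not otherwise (FDR 0.069 and 0.105).

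Lines differed in the sign of the median. The median of the differences within a line was −0.01 over the 79 genes in SN2285, −0.14 in SN2286, 0.08 in SN2293 and −0.06 in SN2294. For all genes the same medians ran from −0.02 to 0.00. Complex II had a positive median in 4 of 4 lines, from 0.01 to 0.18, and complex III a negative one in 4 of 4, from −0.26 to −0.05. Complexes I, IV and V changed sign between lines, with fitted medians of −0.01, −0.03 and −0.03. With the sort held fixed, 1 of the 79 genes, Ndufv3, was called between the lines (FDR 0.020 by edgeR), against 5.32% of all genes. The median SD of log2 CPM among libraries of a sort was 0.0961 in GFP-positive and 0.11 in GFP-negative cells for the respiratory chain genes, against 0.164 and 0.16 for all genes.

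**Figure D4:**
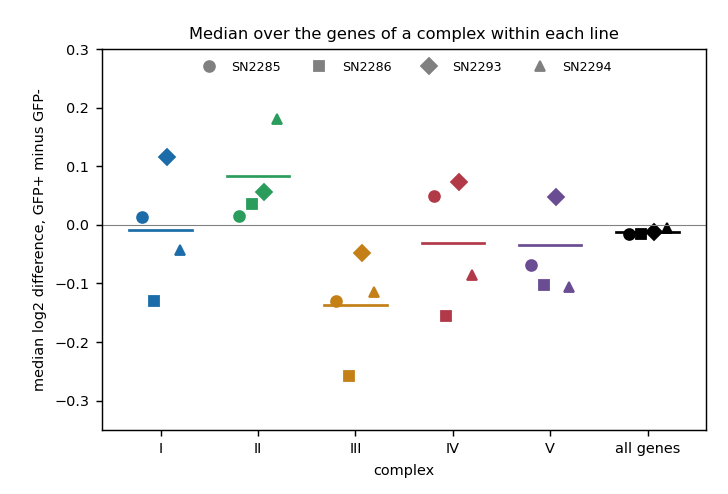
Median difference in log2 CPM, GFP-positive minus GFP-negative, within each of 4 lines (symbols) over the genes of each complex and over all genes tested; the bar is the median of the fitted log2 fold changes. Complex II lies above 0 and complex III below 0 in 4 of 4 lines, and SN2286 is the lowest line for complexes I, III and IV.

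Levels of different genes are compared as CPM per kilobase of a principal transcript, whereas the isoform shares above are shares of raw counts, not scaled to length, and serve to compare libraries. In GFP-positive cells the median was 72.5 for complex I, 94.7 for complex II, 190 for complex III, 147 for complex IV and 179 for complex V, and in GFP-negative cells 75.9, 89.2, 186, 151 and 192. Atp5b was the highest of the 79 at 643 ± 34.7 CPM per kilobase in GFP-positive libraries, followed within the other complexes by Cox6a1 (437 ± 42.2), Uqcrh (413 ± 9.06), Ndufa4 (288 ± 37.3) and Sdhd (112 in complex II). Cox4i2 stood at 4.68 ± 1.12 CPM per kilobase in GFP-positive libraries, against 365 ± 14.0 for Cox4i1 (SD, n = 4). Several low values belong to genes whose transcripts share 50-base words with other annotated genes. In the GENCODE M21 transcripts, 84.8% of the 50-base words of Atp5l also occur in other genes, 14 in number, of which the processed pseudogene Gm10221 shares most. The share was 100% for Atp5g2, 56.2% for Atp5g1, 37% for Ndufb4 and 35.6% for Ndufs5. Atp5g3 and Cox4i2 share none. Atp5o, Cox7c and Atp5h share 89.8%, 53% and 50.5% and still stood at 286, 99 and 252 CPM per kilobase in GFP-positive libraries. For Atp5o the gene that shares most is Donson, which is protein-coding and not a pseudogene. Whether shared words lie in copies elsewhere or in genes that overlap at the same place was not tested. Cox7a1 and Cox6b2 share none and stood at 4.54 and 12.4, so sharing and low counts did not always go together. The values of genes with shared words are uncertain, since how reads with several matches were counted is not stated in the labels.

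Genes that build and serve the chain were counted from lists of other mitochondrial functions. Of 24 complex IV assembly factors tested, 6 rose and 0 fell (25% called, against 40.7% of all genes and 18.9% called higher), with a median log2 fold change of 0.10. At an unadjusted p under 0.05, 7 were higher and 2 lower, and DESeq2 called 6 higher and 0 lower. Adding line to the fit gave 7 higher and 1 lower, the latter Cmc1 (log2 fold change −0.33, FDR 0.022 by edgeR), named after its values were seen. Higd1a measured 68.0, 74.3, 74.0 and 53.8 CPM in GFP-positive and 44.9, 48.7, 53.0 and 27.6 CPM in GFP-negative libraries. It was higher in 4 of 4 lines, with both SN2294 libraries the lowest of their sort, and its log2 fold change was 0.62 (SE 0.18, FDR 0.023 by edgeR). This call was lost without GFP-positive SN2285, SN2286 or SN2293 or GFP-negative SN2285 (FDR from 0.052 to 0.061). 2310061C15Rik (Cmc2), 6330578E17Rik (Coa5) and Ccdc56 (Coa3) rose with log2 fold changes of 0.44, 0.27 and 0.23. The last call was lost without GFP-positive SN2293 or SN2294 and GFP-negative SN2286 or SN2293 (FDR from 0.058 to 0.081 by edgeR). Scaled by library size alone, none of these 4 passed, and neither did Ecsit, 5730437N04Rik, Polg, Gpd2, Opa1 and Timm13 named below (FDR 0.05 to 0.418). Of the other assembly lists, 1 of 16 complex I factors rose (Ecsit, 0.41). The 16 leave out Atp5sl (Dmac2), which is counted above with complex V by its symbol and fell (−0.42). By edgeR 0 of 4 complex II factors and 0 of 6 complex III factors were called, with 1 and 0 at an unadjusted p under 0.05 and 0 and 0 called by DESeq2, and 1 of 5 complex V factors rose (5730437N04Rik, now Tmem242, 0.28). Adding line to the fit gave 1 lower gene in each of 3 of these lists, Ndufaf4 for complex I (edgeR FDR 0.0092), Sdhaf1 for complex II (0.048) and Tmem70 for complex V (0.032), of which Ndufaf4 is named after its values were seen.

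Of 20 regulators of respiratory genes tested, 1 rose and 4 fell, or 2 and 5 with line as a term. Without that term 25% were called, against 40.7% of all genes, and the median log2 fold change was −0.11. Ppargc1a, the coactivator PGC-1alpha, measured 7.54, 7.72, 7.56 and 6.63 CPM in GFP-positive and 16.4, 17.5, 18.4 and 17.5 CPM in GFP-negative libraries. The groups were far apart, with a log2 fold change of −1.25 (SE 0.12, FDR 5.26e-06 by edgeR). Esrrg, a nuclear receptor that works with it, measured 0.771, 1.52, 0.402 and 0.325 CPM against 8.29, 9.72, 8.34 and 6.93 CPM, a log2 fold change of −3.52 (SE 0.36). Its relative Esrra fell with a log2 fold change of −0.33 and Polg, the mitochondrial DNA polymerase, rose with 0.30. Tfam, Nrf1 and Gabpa, regulators of the chain and of mitochondrial DNA, had log2 fold changes of −0.05, 0.04 and −0.20 and were not called, although Gabpa was lower in 4 of 4 lines and was called with line as a term (FDR 0.031 by edgeR). These 3 are named after their values were seen.

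Of 22 carriers and inhibitors next to the chain, 3 rose and 5 fell, or 4 and 6 with line as a term. The 36.4% called without that term stand against 40.7% of all genes, and the median log2 fold change was −0.05. Adck3 (Coq8a), which supports coenzyme Q synthesis, measured 2.06, 2.19, 2.58 and 1.63 CPM against 11.97, 10.7, 9.19 and 6.77 CPM, with a log2 fold change of −2.21 (SE 0.23). Coq3, a coenzyme Q methyltransferase, and Ucp2, a carrier of the inner membrane, fell with log2 fold changes of −0.55 and −0.56, and Gpd2, which feeds electrons from glycerol 3-phosphate, rose with 0.43. Ndufa4l2, a relative of Ndufa4 named after its values were seen, measured 1.29, 0.095, 1.21 and 0 CPM in GFP-positive and 19.6, 7.69, 23.1 and 0.945 CPM in GFP-negative libraries. It was lower in 4 of 4 lines, and its groups overlapped because the GFP-negative library of SN2294 was near the GFP-positive ones (log2 fold change −4.37, SE 1.14, FDR 0.020 by edgeR). The electron carrier Cycs was at 33.5 ± 6.61 against 34.4 ± 5.48 CPM (SD, n = 4) and was not called.

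**Figure D5:**
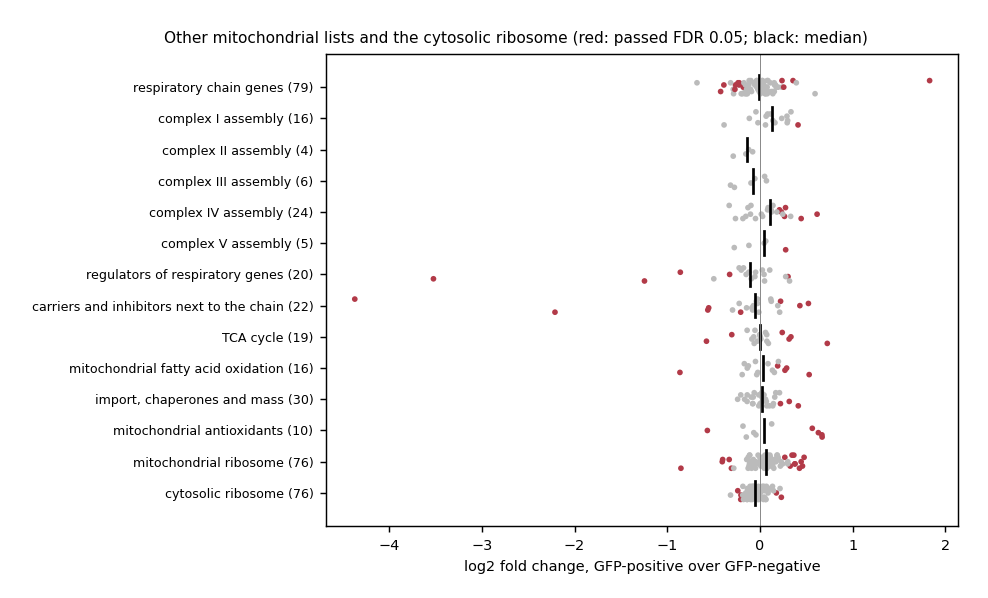
Log2 fold change of each tested gene (points) in the respiratory chain, in lists of other mitochondrial genes and in the cytosolic ribosome, with the number tested in brackets, the median as a black bar and genes past the FDR of 0.05 in red. Medians lie between −0.14 and 0.13, while single regulators and carriers reach −3.52 and −4.37.

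In the matrix pathways that feed the chain, 4 of 19 TCA cycle genes rose and 2 fell (31.6% called, against 40.7% of all genes). They were led by Pcx (pyruvate carboxylase, 0.73), Suclg2 (−0.58), Ogdh (0.33) and Idh2 (0.31 on the log2 scale). In mitochondrial fatty acid oxidation, 4 of 16 rose and 1 fell (31.25% called), or 5 and 2 with line as a term. Decr1 was at 0.53 and Cpt1c at −0.86. Of 10 mitochondrial antioxidant genes, 4 rose and 1 fell (50% called, against 40.7% of all genes). Nnt, which makes NADPH at the inner membrane, was at 107 ± 4.06 CPM in GFP-positive against 67.2 ± 2.24 CPM in GFP-negative libraries (SD, n = 4), a log2 fold change of 0.67, and Gpx4 and Prdx3 rose with 0.67 and 0.63. Of 30 genes for import, chaperones and mitochondrial mass, 3 rose (Timm50, Opa1 and Timm13, 0.41, 0.22 and 0.32), or 10% called. By edgeR or DESeq2 0 fell, with 1 lower at an unadjusted p under 0.05. The call of Timm13 was lost without GFP-positive SN2285 or SN2294 or GFP-negative SN2285, SN2286 or SN2293 (edgeR FDR from 0.058 to 0.089). Mitochondrial ribosomal proteins had 10 of 76 higher and 5 lower (19.7% called) with a median of 0.07. Cytosolic ribosomal proteins had 2 of 76 higher and 3 lower (6.6% called) with a median of −0.06.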

How the data were processed

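Polyadenylated RNA from GFP-positive and GFP-negative cells of 4 organoid lines was sequenced, 1 library each. The authors deposited raw counts per gene symbol, whole numbers without normalization. The submitters' processing notes name cutadapt 1.16, STAR 2.5.3a, featureCounts, Subread and build mm9. Neither the annotation nor the strand setting nor the rule for multi-mapping reads is stated in the labels, so overlapping and antisense genes cannot be told apart. Counts of PCR products are not independent molecules.

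In R 4.3.3 with edgeR 4.0.16, filterByExpr (10 counts, scaled, in at least 4 libraries and 15 in total) left 12848 of 23284 genes. They were scaled by TMM and modelled by sort alone in a robust two-sided quasi-likelihood test, with Benjamini-Hochberg adjustment over all 12848 genes. SE is the log2 fold change divided by the square root of F, and 95% intervals use the test's degrees of freedom. The procedure was also run on simulated counts, and the outcome is not given here. These counts were drawn without differences between lines, so they do not test the fit by sort alone on data with such differences. Differences between lines came from an F test with sort and line as terms. Isoform shares used exact permutation tests of raw counts.

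Libraries of the same line, named in the labels, form pairs. The main fit by sort alone and the fits that leave out a library did not use these pairs. After removal of group means, the GFP-positive and GFP-negative libraries of the same line had Pearson's r of 0.367, 0.455, 0.322 and 0.404 across genes, which are not independent of each other, while the highest r between lines was −0.00339. The fit with line as a term stands beside the results whose calls it changes, apart from the ribosomal lists, which had 13 higher and 6 lower (mitochondrial) and 3 and 3 (cytosolic) with it.

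Alternatives were the line term, library size alone, upper quartile scaling, DESeq2 1.42.0, other filters, thinning and leaving out each library. Symbols were matched to RefSeq, 80 of 84 as current symbols and 4 as older ones. Transcript lengths and shared 50-base words came from GENCODE M21 (GRCm38), so no mm9 coordinates are given. The gene set, lists and tests were chosen with earlier results of these data known. Named are up to 4 higher and 4 lower genes called in each complex, a chosen set of core subunits, the paralogs, the extremes of each complex, and up to 4 genes with the smallest p of each other list. A gene counted among those tested and called is not reported here by name.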

Additional observations from a re-analysis of the deposited data

Results flagged for a closer look

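Single libraries stood apart from the other 3 of their sort, by Dixon's criterion at 95%, in 16 of 204 groups of 4 checked, and chance gives about 1 in 20. In GFP-positive SN2294, Atp5b was at 1332 CPM (the others at 1192 to 1207), Atp5g3 at 296 CPM (235.8 to 245.9), Ndufa4 at 155.1 CPM (118.2 to 124.1) and Uqcrc2 at 180.3 CPM (158.8 to 162.2). The summed level of complex V there was 4400 CPM (4003 to 4058), and Ppargc1a was at 6.633 CPM (7.541 to 7.717). In GFP-positive SN2286, Atp5sl was at 10.58 CPM (13.54 to 14.05), Cox5b at 77.37 CPM (86.68 to 88.59), the sum of complex IV at 1725 CPM (1857 to 1868) and Mrps10 at 31.44 CPM (33.96 to 34.2). In GFP-positive SN2285, Esrra was at 55.53 CPM (46.37 to 47.31) and Rps20 at 553.2 CPM (504 to 512.4). In GFP-negative SN2294, the shallowest library, Uqcr11 was at 102.5 CPM (74.99 to 79.03), 3110001D03Rik (Dmac1) at 27.88 CPM (22.47 to 22.8), Timm13 at 60.17 CPM (45.73 to 46.87) and 6330578E17Rik at 98.76 CPM (112.9 to 115.8).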

How the results depend on the processing

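With line as a term (the replicate block, libraries paired by line), 6 respiratory chain genes were called higher and 12 lower, against 4 and 8 without it, and the median log2 fold change was −0.016. Scaling by library size alone gave 1 higher and 30 lower and moved the median to −0.1625 over all of them, −0.1579 in complex I, −0.06659 in complex II, −0.2869 in complex III, −0.183 in complex IV and −0.1848 in complex V. The same scaling gave 11 higher and 49 lower among the other lists, against 37 and 18. With a mean of at least 10 CPM 2 genes were higher, at an FDR of 0.01 1 was higher and 1 lower, and at 1.5-fold or more 1 was higher and 0 lower. The shares of all genes at an FDR of 0.01 or at 1.5-fold or more are not given here. Leaving out a library gave 1 to 6 higher and 3 to 10 lower. In these fits 7.59 to 17.7% of the 79 were called, against 35.2 to 39.5% of all genes. Without a filter 81 genes were tested, the complex IV median was 0.08707 and 3 genes differed between lines; leaving out a library gave 0 to 4 such genes. Intervals inside 1.5-fold numbered 67 to 74 under the edgeR settings, and were not computed with DESeq2, an outcome added after seeing the data. Leaving out Cox4nb, Ndufa4, Atp5s, Atp5sl and Cox7a2l, also added then, gave 4 higher and 7 lower. Of the values of single named genes, 1189 kept direction and side of the threshold, 114 lost it and 50 gained it; none reversed. Ndufv3 also missed the threshold with upper quartile scaling (FDR 0.059), at 10 CPM or more (0.083) and after thinning (0.106), and Uqcrh and Cox4i1 without a filter (0.092 and 0.063). The SE of a log2 fold change ran from 0.0634 (Uqcrh) to 0.485 (Cox7a1), which limits the changes that could pass.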
